A study of Rattus norvegicus with 20 samples.

Results

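miR-22 is made from 1 hairpin precursor whose arms give the mature miRNAs miR-22-3p (rno-miR-22-3p in the files) and miR-22-5p (rno-miR-22-5p). Every read that the deposited tables assign to either arm was taken here, which gave 2 of the 617 miRNAs with reads in punches of the adBNST, the anterodorsal part of the bed nucleus of the stria terminalis. This region of the extended amygdala takes part in anxiety-like behavior. miR-22 was singled out because miR-22-3p differed with housing in these same rats, so its values by housing are given below as a description, with no test. Both arms passed the filter on low counts. No read of either arm was also assigned to another miRNA.

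Small RNA was sequenced from bilateral adBNST punches of 20 Sprague-Dawley rats with no genetic change or drug treatment. Weaning was on postnatal day 21, after which a rat lived for 6 weeks either alone (socially isolated, SI) or with same-sex littermates (group-housed, GH), and all were tested on the elevated plus maze at 9 weeks of age shortly before tissue was taken. The design crossed housing with sex, and each of the 4 groups held 5 rats. The female samples were chosen by the study for RNA quality and for a range of estradiol levels. Rats are named here by group and animal number. The label and the file name disagree on sex for the 2 SI rats numbered 17. They were placed by their labels, and exchanging the pair was run as an alternative.

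A mature miRNA loads into an Argonaute protein and pairs with messenger RNAs through its seed, bases 2 to 8 from the 5′ end, which lowers their translation and stability. Usually one arm of the hairpin is retained as the guide and the other, the passenger, is mostly degraded. Drosha and Dicer set the ends of both arms, and exonucleases and nucleotidyl transferases later trim or extend the 3′ end, so that each arm occurs as a set of forms called isomiRs. miR-22-3p is the usual guide. It is known from heart muscle, where it takes part in hypertrophic growth, and Hdac4 is among its studied targets.

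The precursor lies on chromosome 10 of the rat genome, at chr10:60805331-60805425 on the plus strand of GRCr8. It is 95 bases long and is shown because both arms are read from it, with miR-22-5p as the first and miR-22-3p as the second run of capitals.
Mir22 hairpin: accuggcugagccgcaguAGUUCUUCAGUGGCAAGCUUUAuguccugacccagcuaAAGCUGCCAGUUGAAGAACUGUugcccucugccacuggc
In the RefSeq table of mature miRNAs, each arm is 22 bases long, and the reference form in the deposited files has the same letters as RefSeq for both. The seed is in capitals.
miR-22-5p: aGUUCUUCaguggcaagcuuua
miR-22-3p: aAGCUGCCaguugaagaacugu
miR-22-5p lies at chr10:60805349-60805370 and miR-22-3p at chr10:60805387-60805408. Among the 693 mature rat miRNA names of that table, only miR-22-3p had the seed of miR-22-3p and only miR-22-5p that of miR-22-5p. No seed family therefore stood beside either arm.

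The isomiRs of miR-22-3p differed mostly at the 3′ end. These 8 forms had the highest mean share of miR-22-3p reads, in this order, and are shown because they held 94.4% of its reads. Capitals mark bases added beyond the reference, and the missing bases of the shorter forms are simply absent.
Reference form: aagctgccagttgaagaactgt
2 bases shorter: aagctgccagttgaagaact
3 bases shorter: aagctgccagttgaagaac
1 base shorter: aagctgccagttgaagaactg
A added: aagctgccagttgaagaactgtA
5′ base missing: agctgccagttgaagaactgt
Templated T more: aagctgccagttgaagaactgtT
1 base shorter, C added: aagctgccagttgaagaactgC
For miR-22-5p, a form without the last base had a higher mean share than the reference form, and a form with an added A came next.
miR-22-5p, 1 base shorter: agttcttcagtggcaagcttt
miR-22-5p, reference form: agttcttcagtggcaagcttta
miR-22-5p, A added: agttcttcagtggcaagctttaA

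Each library held between 3428930 and 11383055 reads of miRNAs. Levels are given in RPM, the reads per 1000000 of the library size after adjustment by TMM, the scaling of edgeR. No 2 of the libraries were copies of each other. Distinct sequences were fewer in several SI libraries. When each library was thinned to 3400000 reads, between 15822 and 20379 distinct sequences were expected in GH females and between 10735 and 15470 in SI females, which did not overlap, and between 12585 and 21396 in GH males and between 12863 and 17047 in SI males. The part that this difference in library complexity has in the values of miR-22 was not tested.

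miR-22-3p was lower in SI than in GH rats of both sexes. In GH males it was counted at 2092 RPM in rat 16, 1943 in rat 19, 1662 in rat 18, 1268 in rat 20, and 1825 in rat 21. In SI males the values were 487 in rat 15, 737 in rat 19, 699 in rat 22, 575 in rat 17, and 634 in rat 20. The highest SI male was thus below the lowest GH male, and the 5 SI males were close to each other.

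In GH females miR-22-3p was counted at 2879 RPM in rat 15, 2212 in rat 12, 3442 in rat 16, 1741 in rat 13, and 2580 in rat 17. In SI females the values were 1106 in rat 14, 1414 in rat 10, 742 in rat 17, 751 in rat 12, and 337 in rat 16. The groups did not overlap in females either, but the spread among SI females was wider than among SI males. SI female 16 was the lowest of all 20 rats, and its library was also the one with the fewest distinct sequences.

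**Figure D1:**
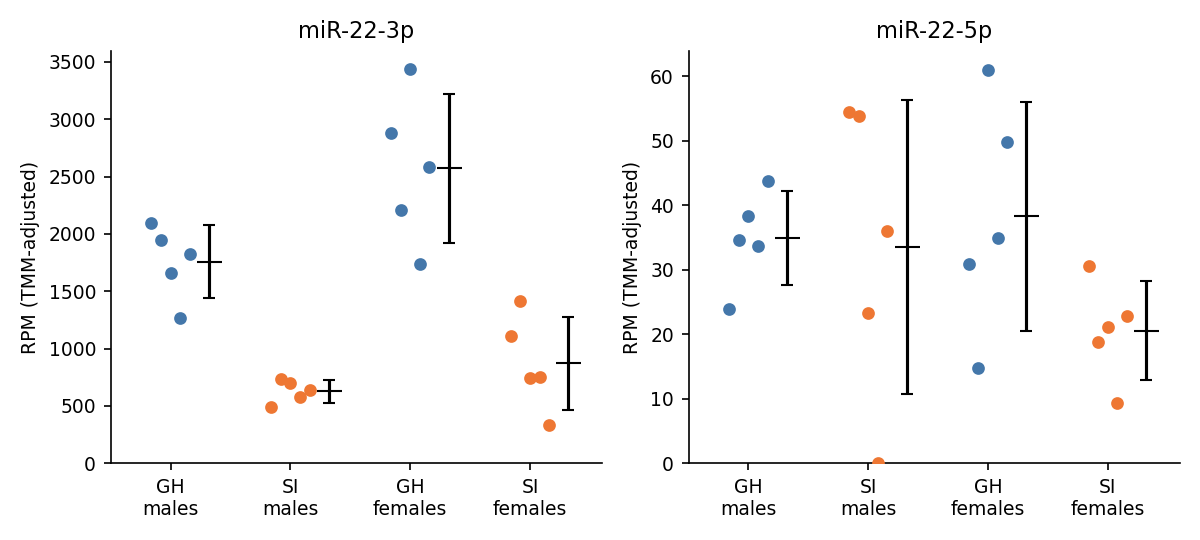
RPM (reads scaled to the TMM-adjusted library size) for miR-22-3p (left) and miR-22-5p (right) in each rat, by group, with the group mean and SD beside the points (n = 5 rats each). The SI rats sit below all GH rats of their sex for miR-22-3p, between 487 and 737 in males and between 337 and 1414 in females, while for miR-22-5p the groups overlap.

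By group, miR-22-3p was highest in GH females (2571 ± 646 RPM, SD, n = 5), followed by GH males (1758 ± 316, n = 5), SI females (870 ± 408, n = 5), and SI males (626 ± 99.5, n = 5). GH females and GH males were next to each other in this order and overlapped. SI females and GH males overlapped as well, since SI female 10 lay above GH male 20. In edgeR's model the level in SI males was 0.36 of that in GH males, and the level in SI females was 0.34 of that in GH females. The median log2 fold change of all 500 miRNAs tested was -0.01 in males and -0.13 in females. Every SI rat lay below every GH rat for 9.2% of the miRNAs tested in males and for 1.6% in females, and nothing is read from this for miR-22-3p because the same contrast singled it out. Within its library, miR-22-3p ranked between place 46 and place 86 by reads in GH rats and between place 79 and place 134 in SI rats. A punch holds many cell types, so fewer cells that express miR-22 and less miR-22 per cell cannot be told apart.

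miR-22-5p, the passenger arm, was far less abundant. In GH males it had 120 reads in rat 16, 135 in rat 19, 150 in rat 18, 281 in rat 20, and 359 in rat 21. In SI males it had 572 reads in rat 15, 404 in rat 19, 105 in rat 22, 0 in rat 17, and 236 in rat 20. Isolated males thus held both the highest and the lowest counts. The tables list only sequences read at least 2 times, so a count of 0 does not exclude single reads.

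In GH females miR-22-5p had 251 reads in rat 15, 85 in rat 12, 378 in rat 16, 178 in rat 13, and 226 in rat 17. In SI females it had 212 reads in rat 14, 125 in rat 10, 148 in rat 17, 62 in rat 12, and 119 in rat 16. The ranges overlapped in both sexes.

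Scaled to library size, miR-22-5p was at 34.9 ± 7.27 (SD, n = 5) RPM in GH males, 33.5 ± 22.8 (n = 5) in SI males, 38.3 ± 17.8 (n = 5) in GH females, and 20.6 ± 7.68 (n = 5) in SI females. SI against GH gave a log2 fold change of -0.06 (SE 0.72) in males and -0.90 (SE 0.72) in females, while the standard error for miR-22-3p was 0.28 in both sexes. In males the direction for miR-22-5p rested on SI male 17. Without that rat the log2 fold change was 0.23, and with the 2 rats numbered 17 exchanged it was 0.12. Over the alternatives run at the level of the arms, miR-22-5p lay between -0.30 and 0.42 in males and between -1.24 and -0.66 in females. For miR-22-3p the limits were -1.59 and -1.17 in males and -2.20 and -1.34 in females. These limits leave out the count of the reference form alone. That form was at -1.91 in males and -1.96 in females for miR-22-3p, and at -0.69 (SE 1.15) and -1.35 (SE 1.17) for miR-22-5p. With the forms of the arm summed, miR-22-5p in males thus lay near 0 with a wide error, on either side of 0 by setting. In females both arms had lower means in SI rats, with overlap for miR-22-5p.

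miR-22-5p made up a larger part of all miR-22 reads in most SI rats. The share of miR-22-5p was 2.01 ± 0.581% (SD, n = 5) in GH males and 5.10 ± 3.78% (n = 5) in SI males. 4 SI males were above all GH males, the highest at 10.1%, and SI male 17 was at 0. In females the share was 1.47 ± 0.576% (n = 5) in GH rats and 2.87 ± 2.08% (n = 5) in SI rats, of which 3 were above all GH females. The widest exact (Clopper-Pearson) 95% interval of this share in a single library spanned 2.26 percentage points, and covers counting error only, since reads carry no molecular identifiers.

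In all, 192 distinct sequences were read for miR-22-3p, in 179321 reads, and 26 for miR-22-5p, in 4146 reads. Of the 192, 84 were found in 1 library only and 3 in all 20. The filter of at least 10 counts in at least 5 libraries left 29 forms of miR-22-3p, which held 98.3% of its reads, and 2 forms of miR-22-5p. Of the 29 forms, 2 had no SI library with 10 counts. Others had some SI libraries with 10 counts, but too few for the filter, and also met it through GH libraries. The number of distinct miR-22-3p sequences also differed between the groups. Thinned to 1753 miR-22-3p reads, the count of the shallowest library, GH males showed between 32.3 and 43.6 sequences and SI males between 12.7 and 36.2. GH females showed between 37.0 and 47.4 and SI females between 11.0 and 30.6. The groups overlapped in males and did not overlap in females.

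The reference form made up 75.1% of all miR-22-3p reads, and its share of miR-22-3p was lower in SI rats. In GH males it was 81.3% in rat 16, 74.7% in rat 19, 77.2% in rat 18, 73.3% in rat 20, and 77.0% in rat 21. In SI males it was 61.7% in rat 15, 67.7% in rat 19, 62.4% in rat 22, 62.3% in rat 17, and 63.8% in rat 20. All SI males lay below all GH males. The widest exact 95% interval of this share in a single library spanned 4.72 percentage points.

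In GH females the reference form was 77.1% of miR-22-3p reads in rat 15, 77.2% in rat 12, 82.8% in rat 16, 74.4% in rat 13, and 83.1% in rat 17. In SI females it was 67.8% in rat 14, 77.0% in rat 10, 69.4% in rat 17, 65.2% in rat 12, and 45.6% in rat 16. 4 SI females were below all GH females, and SI female 10 fell among them. SI female 10 was also the SI rat with the highest miR-22-3p level, and SI female 16, with the lowest level, had the lowest share.

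This share is a ratio within each library. Its mean in SI rats was lower by 13.1 percentage points in males (63.6 ± 2.43% against 76.7 ± 3.07%, SD, n = 5 each) and by 13.9 in females (65.0 ± 11.7% against 78.9 ± 3.85%, SD, n = 5 each). Of the 166 other miRNAs with at least 500 reads in every library, 99 had a lower mean reference share in SI males and 91 in SI females, and the median difference was -0.32 percentage points in males and -0.20 in females. The 5th and 95th percentiles were -7.68 and 4.68 in males, and -6.21 and 4.15 in females. Groups that did not overlap, with all SI rats lower, were found for 7.19% of the 167 miRNAs in males and 5.39% in females. In both sexes 1 of the 166 had a larger difference, miR-370-3p, which is named after its values were seen, at -13.13 percentage points in males and -14.6 in females, beside -13.11 and -13.9 for miR-22-3p.

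**Figure D2:**
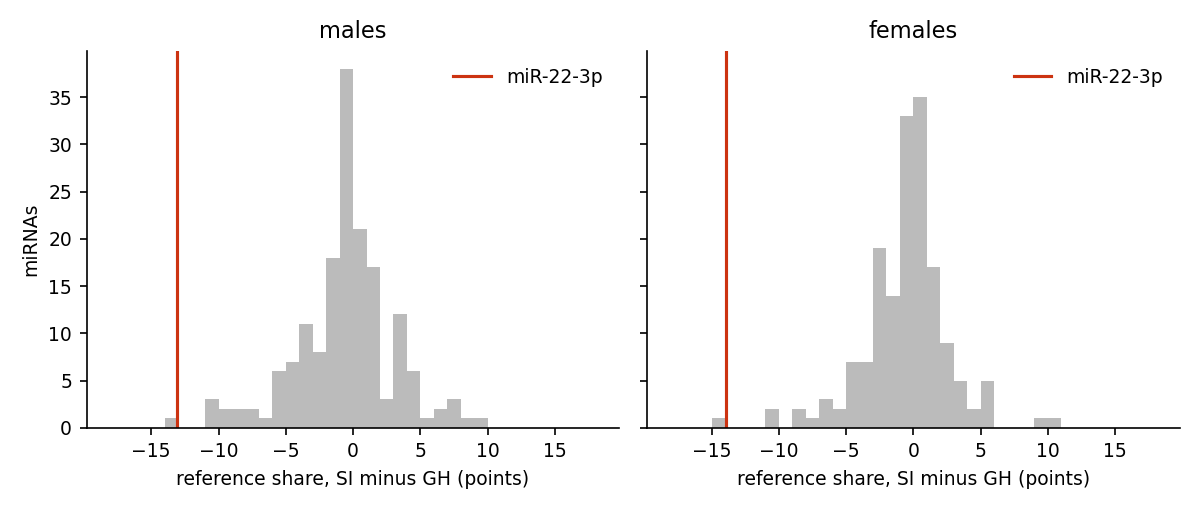
Difference in the mean share of the reference form between SI and GH rats, in percentage points (horizontal axis), for the 166 other miRNAs with at least 500 reads in every library (grey, number of miRNAs on the vertical axis) and for miR-22-3p (red line). miR-22-3p lies near the lower edge in both sexes, at -13.1 points in males and -13.9 in females.

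Forms with a shortened 3′ end had the higher share in SI rats. These forms, with or without added bases, made up 18.4 ± 3.01% of miR-22-3p reads in GH males and 31.4 ± 4.79% in SI males (SD, n = 5 each), with no overlap. In females they made up 15.3 ± 3.93% in GH rats and 28.5 ± 8.24% in SI rats (SD, n = 5 each), and 4 of the 5 SI females were above all GH females. The form lacking the last 2 bases was the main one. Its share was 11.6 ± 2.44% in GH males, 19.2 ± 5.05% in SI males, 9.25 ± 2.85% in GH females, and 20.5 ± 8.55% in SI females (SD, n = 5 each).

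For each read of the form lacking 2 bases, GH males had between 5.30 and 10.4 reads of the reference form and SI males between 2.41 and 4.55. GH females had between 6.00 and 13.8 and SI females between 1.39 and 7.22. The ratio did not overlap in males and overlapped in females through SI female 10.

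On the log2 scale of normalized counts, the reference form was at 13.14 ± 0.29 in GH males, 11.23 ± 0.32 in SI males, 13.77 ± 0.56 in GH females, and 11.55 ± 1.23 in SI females (SD, n = 5 each). The form lacking 2 bases was at 10.39 ± 0.33, 9.46 ± 0.39, 10.62 ± 0.28, and 9.81 ± 0.40 in the same order. Within each sex, both forms separated the housing groups without overlap. The log2 fold change of SI against GH was -1.91 (SE 0.40) in males and -1.96 (SE 0.41) in females for the reference form, and -0.92 (SE 0.23) in males and -0.79 (SE 0.23) in females for the shorter form. In both sexes the full-length form thus had the larger difference, and the difference between the forms was not tested because the same contrast singled out miR-22-3p.

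**Figure D3:**
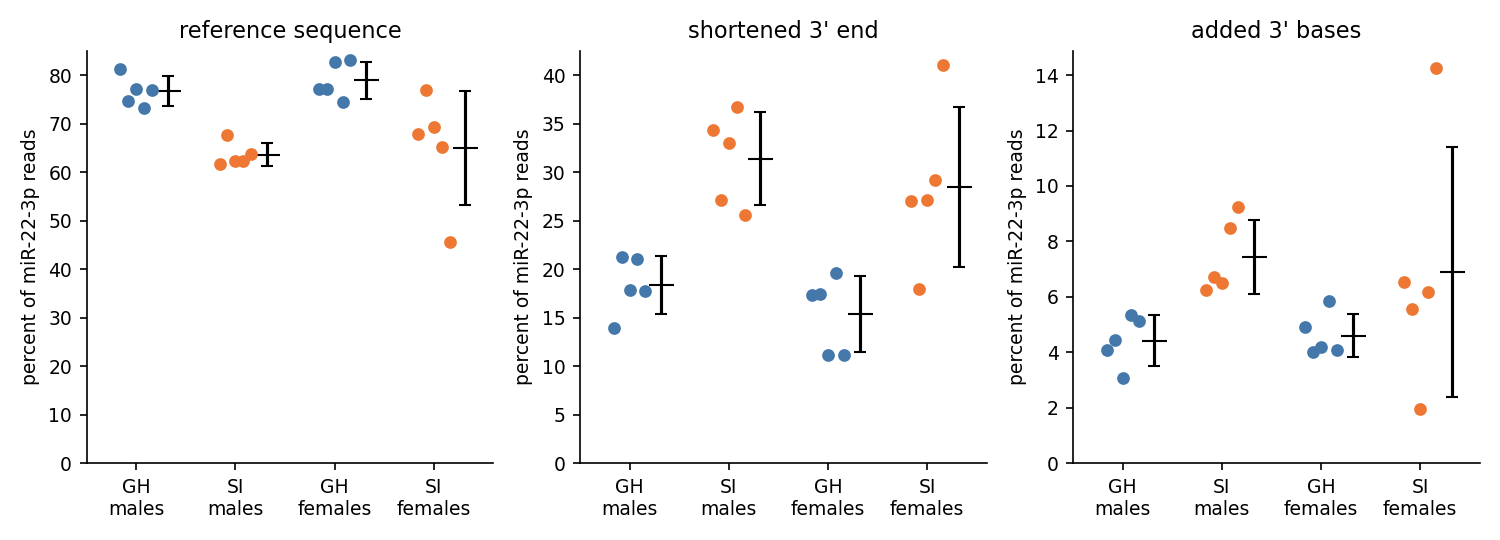
Percent of miR-22-3p reads in the reference form (left), in forms with a shortened 3′ end (middle), and in forms with added 3′ bases (right) in each rat, with the group mean and SD (n = 5 rats each). By their labels, all SI males are below all GH males for the reference form and above them in the other 2 panels, while at least 1 SI female lies within or beyond the GH females in each panel.

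The form lacking 3 bases overlapped between the housing groups in both sexes after normalization. In GH males it had 150, 201, 121, 311, and 326 reads in rats 16, 19, 18, 20, and 21, and in SI males 431, 210, 143, 27, and 165 in rats 15, 19, 22, 17, and 20. In GH females it had 183, 245, 194, 160, and 143 reads in rats 15, 12, 16, 13, and 17, and in SI females 281, 105, 80, 238, and 43 in rats 14, 10, 17, 12, and 16. The log2 fold change was -0.70 (SE 0.51) in males and -0.71 (SE 0.51) in females.

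The form lacking only the last base was nearer to the reference form, at -1.77 (SE 0.92) in males and -1.57 (SE 0.91) in females. It ranged from 82 to 231 reads in GH males and from 17 to 99 in SI males. In females it ranged from 144 to 448 reads in GH rats and from 0 to 235 in SI rats.

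Adenylated miR-22-3p, the reference form with 1 added A, had log2 fold changes of -1.76 (SE 0.97) in males and -0.99 (SE 0.94) in females. It was absent from the tables of SI males 15 and 17 and had 113 reads in SI male 20, against 47 to 296 reads in GH males. The form with 1 more templated T had log2 fold changes of -1.80 (SE 0.93) in males and -1.40 (SE 0.91) in females. The form lacking 1 base and carrying an added C had -0.65 (SE 1.15) and -1.33 (SE 1.16), and 163 of its reads came from SI male 17 while SI male 22 had none. Counts of these minor forms were uneven between rats of 1 group, and their standard errors were larger than that of the form lacking 2 bases.

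A changed 5′ end moves the seed. It was found in 1.55% of miR-22-3p reads, and the most counted form, with 1509 reads, lacked the first base. Its seed, in capitals, is shared by 0 of the 693 mature rat miRNA names.
miR-22-3p, 5′ base missing: aGCTGCCAgttgaagaactgt
This form had log2 fold changes of -1.40 (SE 0.83) in males and -2.07 (SE 0.84) in females, with 46 to 138 reads in GH and 6 to 89 in SI males, and 55 to 233 in GH and 0 to 94 in SI females. The share of changed 5′ ends was 1.46 ± 0.705% in GH males, 1.88 ± 1.58% in SI males, 1.60 ± 0.328% in GH females, and 1.24 ± 1.05% in SI females (SD, n = 5 each), and overlapped in both sexes.

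Over the 29 forms of miR-22-3p that passed the filter, the log2 fold change was below 0 for 24 in males and 26 in females, beside 52.3% of all 10290 isomiRs tested in males and 55% in females. Its median was -1.15 in males and -1.69 in females. All SI rats lay below all GH rats for 6 of the 29 in males and 5 in females, and for 3.29% and 1.7% of all isomiRs. No form had all SI rats above all GH rats. Setting aside the forms with no SI library at the minimum count of the filter left 27 forms. All SI rats lay below all GH rats for 5 of these in males and 3 in females. Some of the forms so counted had too few SI libraries for the filter and met it through GH libraries. Their number is therefore not free of the filter. All of these values come from the contrast that singled out miR-22-3p. Of the 2 forms of miR-22-5p that passed, the shorter one had log2 fold changes of 0.53 (SE 1.0) in males and -0.85 (SE 1.0) in females, and the reference form -0.69 (SE 1.15) and -1.35 (SE 1.17). The miR-22-5p form with an added A had 75 reads in 8 libraries, all of them of GH rats, and did not pass the filter.

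**Figure D4:**
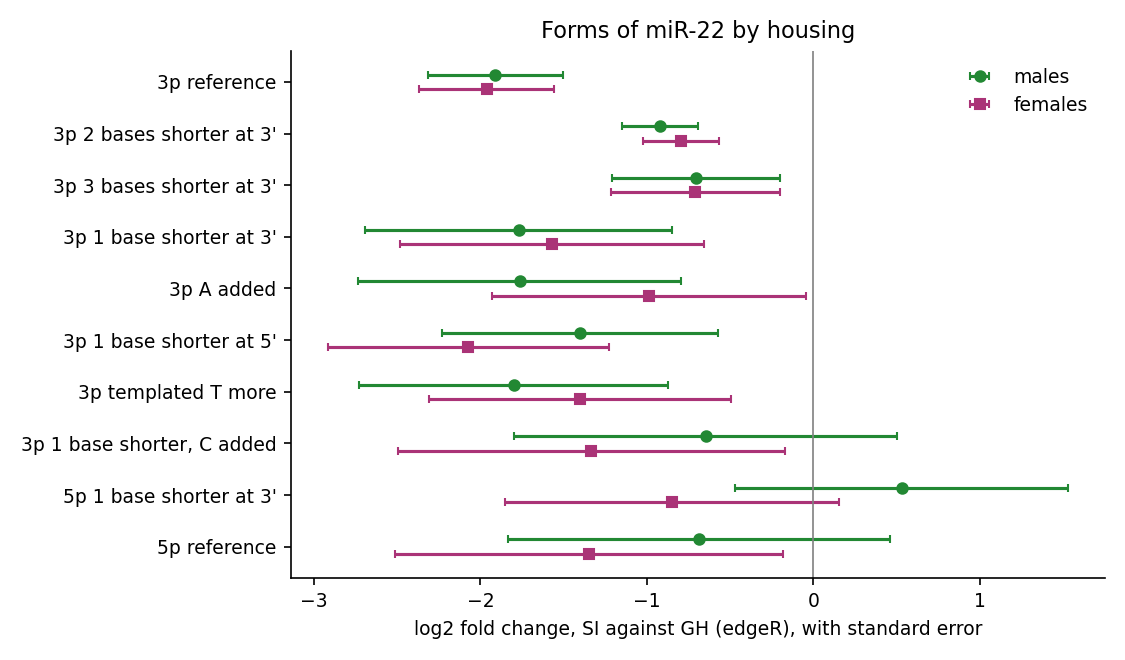
Log2 fold change of SI against GH rats (horizontal axis, edgeR, bars give the standard error) for the 8 miR-22-3p forms with the highest mean share and the 2 miR-22-5p forms that passed the filter, in males (circles) and females (squares). The reference form of miR-22-3p lies at -1.91 and -1.96, the form 2 bases shorter at -0.92 and -0.79, and the form 1 base shorter of miR-22-5p on opposite sides of 0.

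Bases added at the 3′ end without a template were found in 5.11% of miR-22-3p reads. Of these reads, 49.2% carried only A, 25.8% only T, and 25.0% C, G, or a mixture. Added bases made up 4.42 ± 0.907% of miR-22-3p reads in GH males and 7.44 ± 1.34% in SI males, and 4.60 ± 0.776% in GH females and 6.90 ± 4.5% in SI females (SD, n = 5 each). In males the groups did not overlap, but with the 2 rats numbered 17 exchanged they did, and the difference was then 1.71 percentage points. In SI females the range ran from 1.94% in rat 17 to 14.3% in rat 16, so that the lowest and the highest share of all 20 rats were both in that group. Forms extended by templated bases made up 0.771 ± 0.377% in GH males, 0.536 ± 0.554% in SI males, 0.893 ± 0.257% in GH females, and 1.26 ± 0.440% in SI females (SD, n = 5 each), with overlap in both sexes.

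Mismatches to the reference were found in 2.85% of miR-22-3p reads. The leading one was C19T, counted from 1 at the 5′ end of the mature sequence and written with the reference base first, with 1492 reads in 19 libraries. Of these reads, 85.1% also had a shortened 3′ end and added bases, as in the form that held most of them. In this form the mismatch and the added bases are in capitals.
miR-22-3p C19T: aagctgccagttgaagaaTtTT
The same letters can also be read as a molecule that ends at base 18 and carries a tail of T alone, and the counts do not tell these readings apart. Next came A2G, the second base of the mature sequence and the first of the seed, with 778 reads in 19 libraries or 0.434% of miR-22-3p reads. The miR-22-5p mismatch with most reads was A9G, with 17 reads in 1 library. Mismatched reads made up 2.55 ± 0.595% of miR-22-3p in GH males, 4.36 ± 2.0% in SI males, 2.73 ± 0.161% in GH females, and 2.62 ± 0.984% in SI females (SD, n = 5 each), and the housing groups overlapped.

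Males and females of the same housing were compared with tests, since the choice of miR-22 did not rest on sex. In edgeR's quasi-likelihood test, with Benjamini-Hochberg adjustment over the 500 miRNAs, miR-22-3p was at a log2 fold change of 0.55 (SE 0.27, adjusted p = 0.996) in GH females against GH males and 0.47 (SE 0.27, adjusted p = 0.688) in SI females against SI males. 4 of the 5 SI females were above all SI males and 1 was below. The 95% interval of the difference was -0.02 to 1.11 in GH rats and -0.09 to 1.04 in SI rats. For miR-22-5p the log2 fold changes were 0.13 (SE 0.72, adjusted p = 0.996) in GH rats and -0.71 (SE 0.72, adjusted p = 0.882) in SI rats. None of these passed the threshold of 0.05. Between the sexes 0% of all miRNAs were called in GH rats and 0% in SI rats, where 12 and 50 miRNAs had an unadjusted p under 0.05.

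The interaction of housing and sex, females minus males, was -0.07 on the log2 scale (SE 0.39, adjusted p = 0.957 by edgeR) for miR-22-3p and -0.84 (SE 1.02, adjusted p = 0.924) for miR-22-5p, beside 0.4% of all miRNAs called. The interaction is built from the housing differences of each sex, and miR-22-3p was singled out by such differences. For miR-22-3p and its forms it is therefore not independent of that choice. The 95% interval was -0.87 to 0.72 for miR-22-3p and -2.94 to 1.26 for miR-22-5p. A difference between the sexes within that interval was not detectable here.

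Of the 31 forms of both arms that were tested, 0 were called between GH females and GH males, 0 between SI females and SI males, and 0 for the interaction, by edgeR over 10290 isomiRs, of which 0%, 0.00972%, and 0.00972% were called. At an unadjusted p under 0.05 there were 0, 3, and 2 of the 31, beside 1.66%, 8.15%, and 6.41% of all isomiRs. DESeq2's Wald test without the count filter also called 0 of 209 forms in each of these comparisons. In simulated counts of these libraries for another comparison, SI against GH, edgeR recovered 0% of the changed isomiRs at a log2 change of 1 and 13% at a log2 change of 2.

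The 7 shares described above were compared between the sexes in GH and in SI rats with exact two-sided permutation tests over all assignments of the 10 rats, 14 tests in all, for which the smallest possible p is 0.0079. None had p under 0.05. The lowest was for templated extensions, at 1.26 ± 0.440% in SI females and 0.536 ± 0.554% in SI males (exact permutation p = 0.0556, adjusted p = 0.639 over the 14, n = 5 each). For the reference form, p was 0.325 in GH and 0.825 in SI rats (exact permutation tests, n = 5 each, adjusted p = 0.759 and 0.825).

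The miRNAs with the pattern across the 20 rats most like that of miR-22-3p were found by the root mean square difference of their log2 normalized counts, each centred on its own mean. They were miR-24-3p (0.28), miR-143-3p (0.40), miR-411-5p (0.40), miR-30e-5p (0.42), and miR-29a-3p (0.43). The median over the 499 other miRNAs was 1.31, and miR-22-3p itself varied by 0.92 around its mean. miR-22-5p was at 1.73, in place 353 of 499, but this rested on SI male 17, which had no miR-22-5p reads. Without that rat it was at 1.02, in place 146, beside a median of 1.27. The same 5 miRNAs came first with DESeq2's size factors. Chosen for likeness, they were also lower in SI rats, as a description. For miR-24-3p the log2 fold changes were -1.02 (SE 0.33) in males and -1.35 (SE 0.33) in females. That of miR-411-5p was -1.49 (SE 0.39) in males and -0.85 (SE 0.38) in females.

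**Figure D5:**
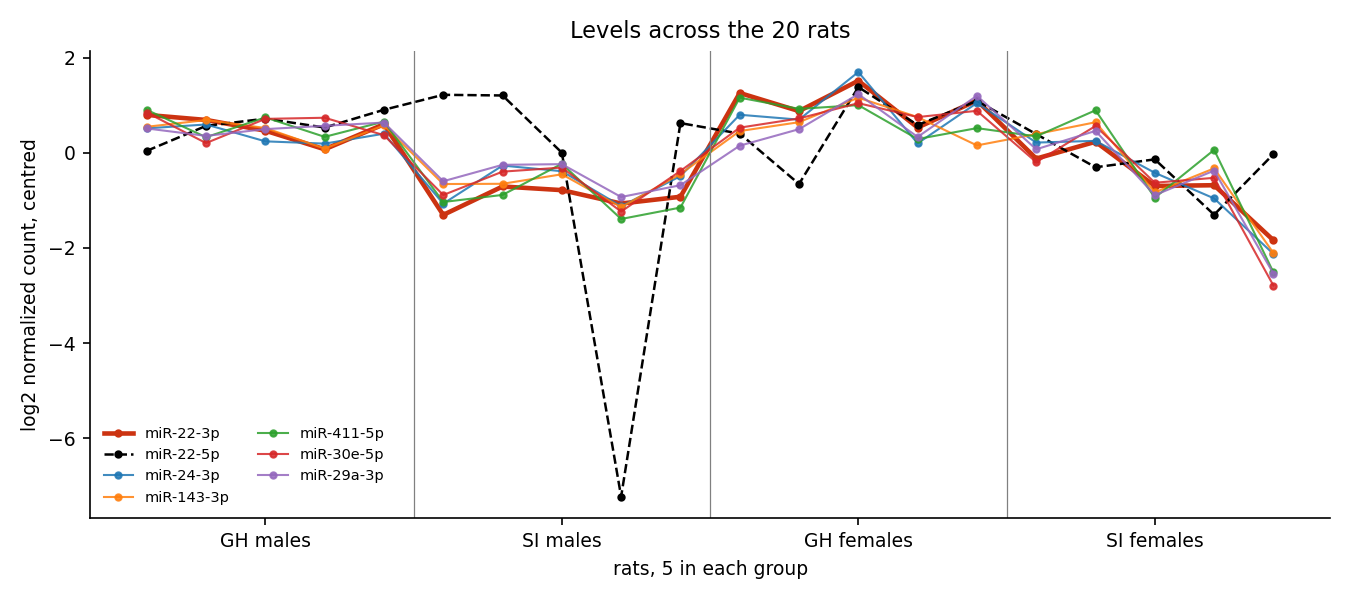
Log2 normalized counts, each centred on its mean over the 20 rats (vertical axis), of miR-22-3p, miR-22-5p, and the 5 miRNAs with the smallest root mean square difference from miR-22-3p, for 5 rats in each of the 4 groups (horizontal axis). The 5 miRNAs follow miR-22-3p, at differences of 0.28 to 0.43, while miR-22-5p is lowest in SI male 17, where it was not read.

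The hairpins of miR-132 and miR-212, which neuronal activity induces through CREB, lie on the same chromosome. None of their 4 arms was called in males or in females (edgeR), beside 4% of all miRNAs called in males (2.6% lower in SI) and 0.4% in females. Their median log2 fold change was -0.31 in males and -0.33 in females. miR-132-3p, the most abundant, was at -0.30 (SE 0.22, adjusted p = 0.459, edgeR) in males and -0.09 (SE 0.22, adjusted p = 0.836) in females, and miR-132-5p at -0.51 (SE 0.25, adjusted p = 0.221) and -0.81 (SE 0.25, adjusted p = 0.0838). miR-6326, whose hairpin RefSeq places beside that of miR-22, had no reads here.

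Marker miRNAs of the cell types in such a punch were read beside miR-22. The counts below are for 39 miRNAs in 8 lists, 1 of which holds the 4 arms of miR-132 and miR-212 and marks no cell type. Of the 39, 36 were tested. In males 2 were called by edgeR, beside 4% of all miRNAs, which are miR-338-5p of oligodendrocytes, named after its values were seen, higher in SI by 1.08 (SE 0.23, adjusted p = 0.0105), and miR-143-3p of vascular mural cells, with a log2 fold change of -1.15 (SE 0.33, adjusted p = 0.0450). The count in males was 1 with the rats numbered 17 exchanged and 1 to 7 with single rats left out. In the 10 rats that share a number, whose males are those numbered 19 and 20, it was 0. For these settings the share of all miRNAs called is not given here, and nothing is read from the counts. In females 0 were called by edgeR, beside 0.4% of all miRNAs, and 12 had an unadjusted p under 0.05, beside 20.8% of all miRNAs. In males 9 had an unadjusted p under 0.05, beside 23.0% of all miRNAs. DESeq2 called 5 of the 39 list members in males, beside 60 of all 617 miRNAs or 9.72%. In females it called 11 of the 39, beside 67 of the 617 or 10.9%.

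The summed level of the 6 neuronal miRNAs, led by miR-9a-5p, overlapped between the housing groups, with 127281 to 189117 RPM in GH and 125543 to 174592 in SI males, and 118288 to 156726 in GH and 97546 to 208582 in SI females. None of them was called, and miR-9a-5p was at a log2 fold change of 0.05 (SE 0.20, adjusted p = 0.983) in males and 0.14 (SE 0.20, adjusted p = 0.727) in females by edgeR. miR-129-5p, the neuronal miRNA with the largest mean change, was at 0.22 (SE 0.21, adjusted p = 0.619) and 0.69 (SE 0.21, adjusted p = 0.0838).

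Of the 6 vascular miRNAs, miR-143-3p alone was called, in males only, and the median log2 fold change of the mural list was -0.31 in males and -0.59 in females. That of the endothelial list was -0.64 in males and -1.09 in females. miR-126a-3p of the endothelial list was at -0.96 (SE 0.40, adjusted p = 0.134, edgeR) in males and -1.25 (SE 0.40, adjusted p = 0.0876) in females. The summed levels were as follows. The 2 endothelial miRNAs, arms of miR-126a, summed to between 880 and 1231 RPM in GH males and between 259 and 698 in SI males, and to between 947 and 2234 in GH females and between 79.9 and 1096 in SI females. The 4 mural miRNAs, of miR-143 and miR-145, summed to between 9477 and 14377 in GH males and between 4090 and 6582 in SI males, and to between 9996 and 19861 in GH females and between 2117 and 13870 in SI females. Both sums did not overlap in males and overlapped in females, and SI female 16 was the lowest rat in both.

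The 7 miRNAs of microglia and leukocytes, led by miR-21-5p, summed to between 1709 and 2251 RPM in GH males, 1229 and 1762 in SI males, 1817 and 4189 in GH females, and 1237 and 1675 in SI females. A sum is weighted by its most abundant members. The median log2 fold change of this list was 0.14 in males and -1.37 in females. miR-21-5p was at -0.89 (SE 0.43) in males and -1.41 (SE 0.43) in females. Red blood cell miRNAs had higher sums in SI males, without overlap, while the sums overlapped in females. The 4 of them, led by miR-486, summed to between 1007 and 1359 in GH males, 1493 and 3117 in SI males, 795 and 1456 in GH females, and 1422 and 4036 in SI females. The median log2 fold change of this list was 0.80 in males and 0.23 in females. By edgeR, miR-486 was at 0.85 (SE 0.27, adjusted p = 0.0707) in males and 0.99 (SE 0.27, adjusted p = 0.0838) in females. Oligodendrocyte miRNAs, led by miR-219a-2-3p, summed to between 3817 and 6143 in GH males and 5267 and 9313 in SI males, and to between 3636 and 6511 in GH females and 3978 and 10097 in SI females. Against these higher upper limits in SI rats, the median log2 fold change of the list was -0.36 in males and -1.08 in females. miR-219a-2-3p was at 0.45 (SE 0.27) and 0.15 (SE 0.27). The miRNAs of choroid plexus and epithelium, led by miR-204-5p, summed to between 861 and 2496 in GH males, 1108 and 18649 in SI males, 1261 and 5339 in GH females, and 876 and 4181 in SI females. Of the 8 members of that list, 5 were tested, with a median log2 fold change of 0.74 in males and -0.31 in females. miR-204-5p was at 1.85 (SE 0.69) in males and -0.48 (SE 0.67) in females. The member with the largest mean change was poorly read in several lists, with log2 fold changes of -1.43 (SE 1.17) in males and -2.71 (SE 1.22) in females for miR-219a-5p of oligodendrocytes, -0.97 (SE 1.91) and -2.40 (SE 2.0) for miR-142-3p of microglia and leukocytes, 4.12 (SE 2.22) and 0.52 (SE 1.91) for miR-143-5p of mural cells, and 0.76 (SE 1.69) and 1.86 (SE 1.74) for miR-144-5p of red blood cells. In the choroid plexus list it was miR-204-3p, at 2.03 (SE 0.69) and 0.44 (SE 0.67). None of these 5 was called by edgeR. The part that the vascular, blood, glial, and epithelial markers have in the level of miR-22-3p was not tested.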

How the data were processed

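The 20 libraries, 5 for each housing and sex, used 215 ng of RNA and 22 PCR cycles. After adapter trimming (cutadapt) and alignment to rat miRBase hairpins (seqbuster), the authors deposited 1 table per library that holds the read count of each sequence with its miRNA, mismatch, added bases, and changes at the 5′ and 3′ ends. Versions of these tools are not given in the sources used here. The counts are whole numbers of at least 2 and are not normalized, so sequences read once are missing. Libraries held 3428930 to 11383055 miRNA reads. Amplification by PCR without molecular identifiers means that intervals cover counting error only.

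Counts were summed to miRNAs and to isomiRs, the miRNA together with its 4 fields of changes. Features with at least 10 counts in at least 5 libraries were tested, 500 miRNAs and 10290 isomiRs. Counts were scaled by TMM, and 1 model of the 4 groups was fitted with the quasi-likelihood test of edgeR 4.0.16 in R 4.3.3, with Benjamini-Hochberg adjustment over all features and a threshold of 0.05. Standard errors follow from the log2 fold change and the F statistic. Log2 normalized counts have a pseudocount of 1. Shares of forms were compared between the sexes with exact two-sided permutation tests (Python 3.11.15, scipy 1.17.1, pandas 2.3.3, numpy 2.4.6, matplotlib 3.10.9). Shares of single libraries have exact binomial intervals at 95%. In simulated counts with 200 of the 500 miRNAs changed, the edgeR test recovered 32.0% at a log2 change of 1 and 72.5% at a log2 change of 2.

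miR-22 and the lists of marker miRNAs were chosen with earlier results of these data known. Values of miR-22 by housing are therefore not tested. The forms named are the 8 of miR-22-3p and the 3 of miR-22-5p with the highest mean share of the reads of their arm, the most counted 5′-changed form, and the leading mismatch of each arm. The other miRNAs named are the 5 most like miR-22-3p and, for each list, the member with the highest level and that with the largest mean change. Sequences and positions come from RefSeq (GRCr8) and the deposited tables.

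The alternatives were DESeq2's size factors, the Wald test of DESeq2 1.42.0 without the count filter, no count filter, a minimum of 10 counts in all libraries, fits of the compared groups alone, leaving out each rat, the 2 rats numbered 17 exchanged, without reads that match several miRNAs or carry a mismatch, only the reference form, sequences with at least 10 reads, and the animal number as a block. Those for the marker lists, the likeness without SI male 17, and the count of forms without those that had no SI library with 10 counts were added after seeing the data. Intervals of log2 fold changes use the t quantile at the degrees of freedom of the quasi-likelihood test.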

Additional observations from a re-analysis of the deposited data

Results flagged for a closer look

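Of 36 groups of 5 rats examined, for both arms and 7 shares, 2 had a value that stood apart by Dixon's criterion, while chance alone gives about 1 in 20. SI male 17 was at 0 for the log2 normalized count of miR-22-5p, and the next rat of the group was at 7.23. GH female 13 had mismatches in 2.45% of miR-22-3p reads, and the next GH female had 2.76%.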

How the results depend on the processing

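Of 1044 alternative values for 41 results on miR-22, 1018 kept their direction and their side of the threshold, or moved by less than the spread between rats. With only the reference form counted, miR-22-3p was at -1.91 (log2) in SI against GH males, and miR-22-5p at -0.18 in GH females against GH males. The 10 rats that share an animal number across housing are those numbered 19 and 20 in males and 12, 16, and 17 in females. For miR-22-3p they gave -1.17 in males and -2.20 in females with the replicate block, and -1.20 in males without it. In these rats without the block, SI females against SI males was at -0.16. The deviations of rats that share a number had correlations from -0.30 to 0.09. These show no sign of pairing by number but cannot exclude it. With single rats left out, the interaction for miR-22-3p ranged from -0.26 to 0.19 and miR-22-5p in GH females against GH males from -0.10 to 0.34.

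For shares, with the 2 rats numbered 17 exchanged, SI females minus SI males was -1.41 percentage points for the reference form, 0.97 for shortened 3′ ends, and 2.07 for added bases, and added bases in SI against GH males differed by 1.71. Without mismatched reads these last 2 were 0.0502 and 1.73. Leaving out single rats, females minus males ranged from -1.60 to 6.25 for the reference form in SI rats, and in GH rats from -0.0651 to 0.418 for changed 5′ ends, -0.0157 to 0.218 for templated extensions, -0.15 to 0.42 for added bases, and -0.0140 to 0.371 for mismatches. Added bases in SI rats ranged from -2.38 to 0.70.

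Of the 36 listed miRNAs tested, 2 were called in males and 0 in females, beside 4% and 0.4% of all miRNAs. DESeq2 called 5 and 11 of 39, beside 9.72% and 10.9% of all 617 miRNAs. The exchange of the rats numbered 17 gave 1 and 1. Only the groups compared gave 7 of 33 in males, and a minimum of 10 counts in every library gave 7 of 23 in females. In the 10 rats sharing a number, 0 were called in males with and without the block, and 6 in females without it. Leaving out single rats gave 1 to 7 in males and 0 to 8 in females. Except for DESeq2, the share of all miRNAs called under these alternatives is not given here. Nothing is read from these counts for the lists. The cause of these differences was not tested. Depth is a limit for miR-22-5p, with at most 572 reads in a library.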
